A study of Mus musculus with 14 samples.

Results

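The Hox genes are the homeobox genes that lie in 4 clusters, HoxA to HoxD, and carry paralog numbers from 1 to 13 along each cluster. All protein-coding genes with a symbol of that form were taken, without regard to their values. GENCODE annotates 39 of them, and the count table holds 34 of these among its 26252 genes. It has no row for Hoxa11, Hoxa13, Hoxb13, Hoxd1 and Hoxd13, which are not analysed here. RNA came from the epithelium of dorsal skin, taken at stage E14.5 from mouse embryos of the strain C57BL/6JOlaHsd (wild type), when the first hair placodes, the local thickenings that become hair follicles, sit in the interfollicular epithelium (IFE). Cells were sorted with an antibody to the adhesion molecule MAdCAM-1 into a positive, placode-enriched fraction and a negative fraction called IFE. Each of the 7 pairs of libraries holds both fractions under one title code, and each library is a pool of 3 to 4 littermates. The sort enriches cells by one surface protein, so neither fraction is a single cell type.

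Hox proteins are transcription factors that bind DNA through the homeodomain, often together with the TALE homeodomain proteins Pbx and Meis. In the trunk they record position along the body axis: genes with low paralog numbers are expressed far forward and early, and genes with high numbers farther back and later. Skin keeps such a positional code in its epidermis and dermis, and Hoxc13 has a separate known role in hair, where it controls hair keratin genes.

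The clusters lie on chromosome 6 (HoxA, minus strand), chromosome 11 (HoxB, GRCm38 96194316 to 96368256, plus strand), chromosome 15 (HoxC, 102921103 to 103036852, plus strand) and chromosome 2 (HoxD, 74668310 to 74765142, plus strand). RefSeq start-site windows (GRCm38.p6) were matched for 12 of the 25 Hox genes tested and for 6 of the 14 that passed the test below. Of those 6, Hoxa5 and Hoxb4 had no annotated exon in the 200 bases before the start, and these stretches are shown because the levels of these genes moved in opposite directions between the fractions, Hoxa5 down and Hoxb4 up in placode-enriched cells. They are chr6:52204588-52204787 (minus strand) and chr11:96318067-96318266 (plus strand), and the capitals mark the letters CCATAATGG.
Hoxa5: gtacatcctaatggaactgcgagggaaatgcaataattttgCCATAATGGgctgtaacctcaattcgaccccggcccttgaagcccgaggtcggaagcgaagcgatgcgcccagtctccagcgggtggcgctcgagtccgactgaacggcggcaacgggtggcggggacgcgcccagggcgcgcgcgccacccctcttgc
Hoxb4: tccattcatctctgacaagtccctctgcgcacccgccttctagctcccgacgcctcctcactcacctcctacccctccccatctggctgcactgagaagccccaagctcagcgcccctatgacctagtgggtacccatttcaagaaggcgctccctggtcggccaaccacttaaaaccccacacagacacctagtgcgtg
The windows were searched on both strands for promoter boxes and homeodomain motifs. The promoter box TATAAA stood in 9.96% of all 32851 windows of that length, and the box with the letters CCAAT in 29.3%. The homeodomain core TAATTA stood in 3.73% of them, and the motif of joint Pbx and Hox binding, TGATNNAT, in 5.85%. Neither of the windows shown held any of these 4 motifs. Of the 12 matched windows of Hox genes tested, TATAAA stood in 2, CCAAT in 5, TAATTA in 0 and TGATNNAT in 3. The difference from all windows was not tested. The stretch CCATAATGG was picked after the windows of the genes that passed had been read. It stood in 25 of the 32851 windows (0.0761%), of which Hoxa5 and Hoxc4 were the Hox genes, 159 and 119 bases before the RefSeq start. The 30 bases around it are chr6:52204727-52204756 (minus strand) and chr15:103034266-103034295 (plus strand). The Hoxc4 stretch lies inside the annotated Hoxc4 gene (103018934 to 103036852), and its window of 200 bases holds annotated exon bases. Hoxa5 fell and Hoxc4 rose in placode-enriched cells, so the genes that share these letters moved in opposite directions.
Hoxa5: aataattttgCCATAATGGgctgtaacctc
Hoxc4: aacacgattgCCATAATGGagaccactgga

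The table holds raw read counts. Library totals lay between 23768071 and 49512872, and the 34 Hox genes took between 0.098% and 0.133% of them. Levels are given as CPM, the usual depth-scaled unit for counts, on library sizes scaled by TMM (trimmed mean of M values), and between genes as CPM per kilobase of merged exons. The fractions were compared with edgeR's quasi-likelihood test, blocked by pair, and a log2 change is the log2 fold change of placode-enriched over IFE. As a criterion, a gene passed at a Benjamini-Hochberg adjusted p under 0.05 over all 15382 genes tested. The epithelial keratin gene Krt5 averaged 1938 ± 246 CPM in the placode-enriched fraction against 2813 ± 323 CPM in IFE (SD, n = 7 each). Of 8 epithelial markers 5 were higher and 3 lower, and 9 of 9 placode markers were higher in the placode-enriched fraction. The same fraction had less of the suprabasal epidermal markers (261 to 524 against 3020 to 4640 CPM in sum, 10 of 10 lower), of the melanoblast markers (8.31 to 14.6 against 124 to 222 CPM, 8 of 8 tested lower) and of the Schwann cell and neuron markers (86.5 to 115 against 172 to 197 CPM, 4 of 7 tested lower). Markers of dermal mesenchyme, a tissue with strong Hox expression, summed to 621 to 792 against 535 to 645 CPM with 2 of 8 tested higher and 2 lower. The higher genes were Dcn (498 ± 79.2 against 258 ± 24.2 CPM) and the collagen gene Col1a2 (27.99 ± 3.03 against 11.8 ± 1.61 CPM, higher in 7 of 7 pairs). The lower ones were Vim (75.6 ± 7.84 against 170.4 ± 23.7 CPM) and Col1a1 (0.524 ± 0.283 against 4.20 ± 4.30 CPM), and Hic1 did not pass (123.7 ± 26.3 against 138.9 ± 19.1 CPM). Each of the other 10 genes of the list averaged under 5 CPM in both fractions, and the mesenchymal factors Prrx1, Twist1 and Tbx5 had no count in any placode-enriched library. Periderm markers were lower (168 to 227 against 404 to 580 CPM, 5 of 5 tested). Muscle markers summed to at most 1.01 CPM, blood markers to at most 0.879, endothelial markers to at most 3.86, immune markers to at most 7.90 and Merkel cell markers to at most 14.8 CPM in any library, with 1 of 1, 0 of 1 and 1 of 2 tested higher for the last 3 and 1 Merkel marker lower. The part of these cells in the Hox results was not tested. In bulk samples, fewer cells of a type and less RNA per cell cannot be told apart.

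Summed by paralog group, Hox RNA of the dorsal epithelium came mostly from groups up to 8, although Hoxb1, Hoxd3 and Hoxd4 in those groups were below 1 CPM per kilobase. Summed over all 34 genes, the level was 401 to 553 CPM per kilobase in placode-enriched and 395 to 512 in IFE libraries, and the ranges overlapped. By paralog number, the mean sum was highest in group 4 in the placode-enriched cells (87.2 ± 13.2 CPM per kilobase, SD, n = 7) and in group 7 in IFE (95.8 ± 10.1). Groups 5, 7 and 8 stood within the SD of group 4 in the placode-enriched cells, at 77.8 ± 7.21, 79.5 ± 7.85 and 80.5 ± 8.62. Behind group 8 the level dropped, to 3.27 ± 0.717 in placode-enriched and 3.42 ± 0.901 in IFE for the 4 genes of group 9. The groups 10, 11 and 12 held 7 genes in the table, and none of these had more than 15 counts in any library.

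**Figure D1:**
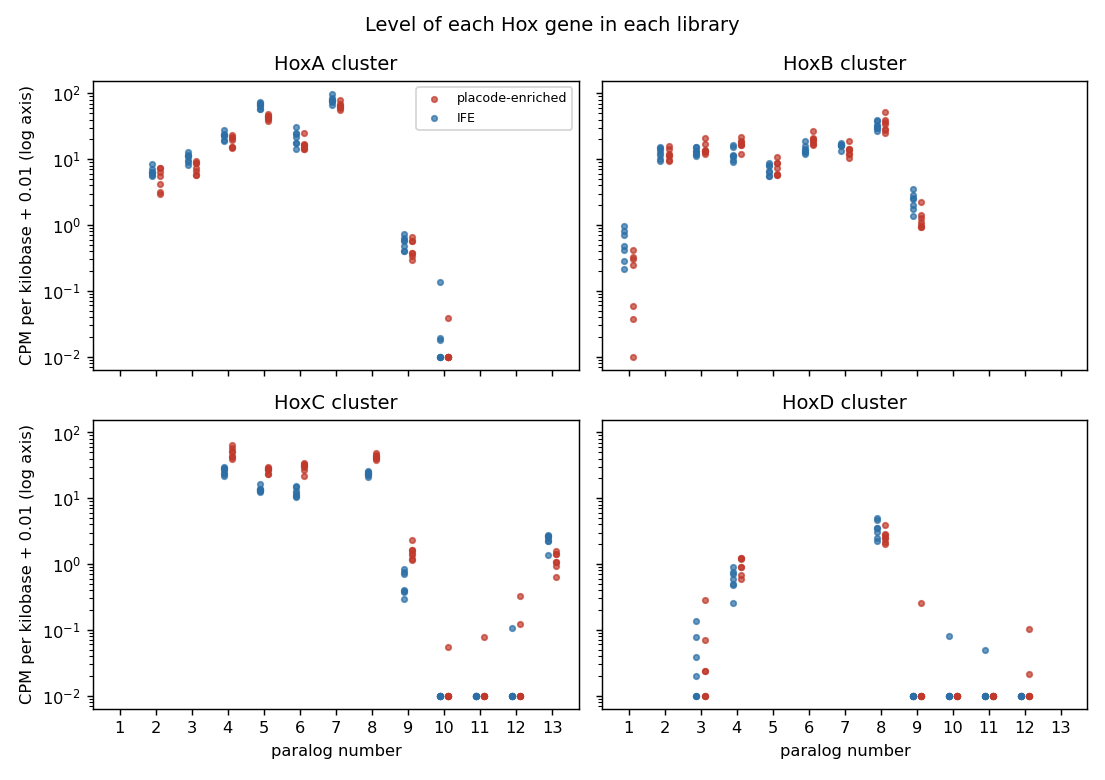
Level of 33 Hox genes in each library as CPM per kilobase (log axis, offset by 0.01 so that libraries without a count can be drawn) against paralog number, 1 panel per cluster, placode-enriched in red and IFE in blue. Most HoxA, HoxB and HoxC genes up to group 8 are high, with Hoxb1 a low exception, HoxD genes are low throughout, genes of groups 10 to 12 are near 0, and Hoxc13 stands above its neighbours at 1.15 and 2.35 CPM per kilobase.

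Too few counts for a test were found for 9 of the 34 genes: Hoxa10, Hoxc10, Hoxc11, Hoxc12, Hoxd3, Hoxd9, Hoxd10, Hoxd11 and Hoxd12. Together they had 166 counts over 14 libraries, 83 of them from Hoxd3. Hoxc13, at the far end of its cluster, was an exception to the drop. It had counts in 14 of 14 libraries, 2024 in all, while Hoxc10, Hoxc11 and Hoxc12 between it and Hoxc9 had 3, 7 and 18. The 7 HoxD genes in the table were low, with 0.817 ± 0.207% of the summed Hox level in placode-enriched and 0.944 ± 0.224% in IFE libraries. Hoxd3 shares 2225 exon bases (53.1%) with the gene model Gm28230, and Hoxd1 and Hoxd13 have no row. The HoxD share may therefore be too low, which was not tested. Within the HoxD cluster Hoxd8 was highest, at 2.67 ± 0.636 and 3.51 ± 1.02 CPM per kilobase, and Hoxd4 followed at 0.945 ± 0.267 and 0.591 ± 0.217.

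The order of single genes differed between the fractions. Hoxa7 was highest in both, at 65.9 ± 7.60 CPM per kilobase in placode-enriched and 79.7 ± 9.61 in IFE libraries. In the placode-enriched cells Hoxc4 (50.2 ± 9.04), Hoxa5 (43.3 ± 3.43), Hoxc8 (42.9 ± 3.71) and Hoxb8 (35.0 ± 9.45) followed. Hoxc4, Hoxa5 and Hoxc8 did not differ beyond their spread, and neither did Hoxc8 and Hoxb8. In IFE Hoxa5 (66.3 ± 6.15) was next, and Hoxb8 (32.8 ± 4.56), Hoxc4 (26.1 ± 3.10) and Hoxc8 (23.7 ± 1.78) were lower. Hoxc4 and Hoxc8 stood within their spread of each other, and both were below Hoxa5 and Hoxb8 in IFE by mean.

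Placode-enriched cells had more HoxC RNA and less HoxA RNA than IFE cells. Of the 25 Hox genes tested, 7 were higher in the placode-enriched fraction, 7 were lower and 11 did not pass. Over all genes tested 31.1% passed, 15.5% higher and 15.6% lower. By cluster, 5 of 6 HoxC genes were higher and 1 lower, 5 of 8 HoxA genes were lower and none higher, 2 of 9 HoxB genes were higher and 1 lower, and neither of the 2 HoxD genes passed. The median log2 change was 0.95 in HoxC, -0.36 in HoxA, 0.06 in HoxB and -0.26 over all 25, beside -0.02 over all genes tested. In 5 Hox genes every placode-enriched library stood above every IFE library, and in 2 every one stood below. Such separation upward was found for 7.46% of all genes and downward for 7.29%.

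**Figure D2:**
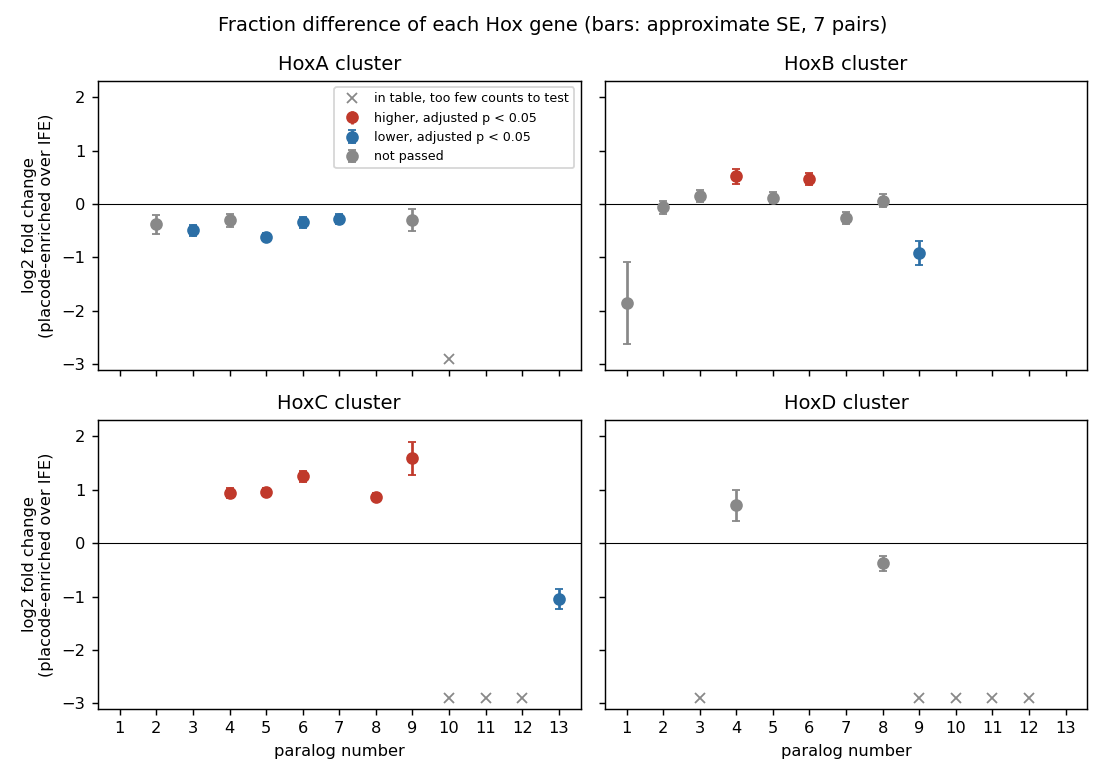
Log2 fold change of placode-enriched over IFE for the Hox genes tested (points; bars are approximate SE over 7 pairs) against paralog number, 1 panel per cluster. Red and blue points passed the test, grey points did not, and crosses mark genes in the table with too few counts to test. Hoxc4 to Hoxc9 lie between 0.86 and 1.58, the HoxA genes drawn all lie below 0, and the HoxB genes lie on both sides.

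In the HoxC cluster every gene tested from Hoxc4 to Hoxc9 rose. Hoxc4 (ENSMUSG00000075394; chromosome 15, 103018934 to 103036852), at the front of the cluster, ranged from 101 to 165 CPM with a median of 129 in placode-enriched libraries and from 55.8 to 76.8 CPM with a median of 69.1 in IFE. The fractions did not overlap. Its log2 change was 0.94 ± 0.10 (SE, approximate; edgeR adjusted p = 1.01e-05), higher in 7 of 7 pairs. Hoxc5 (ENSMUSG00000022485; 102967443 to 103017429) ranged from 71.0 to 90.7 CPM (median 84.5) against 38.5 to 51.2 CPM (median 41.6), again without overlap, and rose by 0.96 ± 0.07 (edgeR adjusted p = 4.04e-07). Hoxc6 (ENSMUSG00000001661; 102998257 to 103011881), a thoracic gene, ranged from 52.3 to 82.0 CPM (median 73.9) against 25.6 to 36.3 CPM (median 28.7). It rose 2.37-fold, a log2 change of 1.25 ± 0.10 (edgeR adjusted p = 6.42e-07), and every placode-enriched library stood above every IFE library. The annotated Hoxc5 gene spans Hoxc6, Hoxc8 and Hoxc9 but shares no exon base with them, while 166 of its exon bases (5.37%) are shared with Hoxc10, which had 3 counts in all.

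Hoxc8 (ENSMUSG00000001657; 102990607 to 102994111), a gene of the thoracic and upper lumbar trunk, ranged from 107 to 139 CPM (median 122) against 58.7 to 74.5 CPM (median 67.0). Its log2 change was 0.86 ± 0.08 (edgeR adjusted p = 1.43e-06) and the fractions did not overlap. Hoxc9 (ENSMUSG00000036139; 102976439 to 102985099) was far lower, from 2.75 to 5.66 CPM (median 3.53) against 0.685 to 2.01 CPM (median 0.941). At this low level it rose 3.00-fold, a log2 change of 1.58 ± 0.31 (edgeR adjusted p = 0.00161), in 7 of 7 pairs. Title codes begin with 27-7 in 3 of the pairs. These 5 genes passed in those pairs alone, with log2 changes of 0.90 to 1.76, and in the 4 other pairs alone, with 0.82 to 1.46. Of all genes tested, 14.9% passed in the 27-7 pairs and 19.9% in the others.

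Hoxc13 (ENSMUSG00000001655; 102921103 to 102928814), the hair keratin regulator, went the other way. It ranged from 1.52 to 3.90 CPM (median 2.61) in placode-enriched and from 3.32 to 6.74 CPM (median 6.17) in IFE libraries, a log2 change of -1.05 ± 0.19 (edgeR adjusted p = 0.000813). The ranges overlapped through the lowest IFE library, but Hoxc13 was lower in 7 of 7 pairs. In the 3 pairs with 27-7 codes alone its value was -1.10 (edgeR adjusted p = 0.0781).

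In the HoxA cluster all 8 genes tested had negative log2 changes, and 5 passed. Hoxa5 (ENSMUSG00000038253; chromosome 6, 52201754 to 52204587), a gene of neck and thorax, ranged from 71.0 to 90.0 CPM (median 83.0) against 110 to 139 CPM (median 123). The fractions did not overlap, and the log2 change was -0.61 ± 0.08 (edgeR adjusted p = 4.79e-05). Hoxa3 (ENSMUSG00000079560; 52169062 to 52213336), known for its part in thymus and parathyroid formation, was lower in 7 of 7 pairs, at 34.8 to 57.2 CPM (median 44.5) against 48.9 to 76.7 CPM (median 66.6), a log2 change of -0.49 ± 0.10 (edgeR adjusted p = 0.00172). Its ranges overlapped. In the 27-7 pairs alone the Hoxa3 value was -0.33 (edgeR adjusted p = 0.166).

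The decreases of Hoxa6 and Hoxa7 were small. Hoxa6 ranged from 12.5 to 21.8 CPM (median 14.2) against 12.4 to 27.1 CPM (median 19.2), with overlapping ranges and a lower value in 6 of 7 pairs. Its log2 change was -0.34 ± 0.10 (edgeR adjusted p = 0.0195), or -0.36 without the replicate block (edgeR adjusted p = 0.106). Hoxa7, the Hox gene of highest level, ranged from 162 to 229 CPM (median 187) against 192 to 281 CPM (median 226), a log2 change of -0.27 ± 0.09 (edgeR adjusted p = 0.0381), and was lower in 6 of 7 pairs. Leaving out a single pair ended the Hoxa6 call for pairs 4, 6 and 7 (edgeR adjusted p = 0.0569, 0.0691 and 0.0605) and the Hoxa7 call for every pair but the fifth (0.0545 to 0.122). Without replicate 3 the Hoxa7 log2 change was -0.19. In the 27-7 pairs alone the values were -0.40 for Hoxa6 (edgeR adjusted p = 0.113) and -0.11 for Hoxa7 (0.578), and in the other pairs -0.29 (0.241) and -0.40 (0.0412).

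Hoxa2, Hoxa4 and Hoxa9 did not pass, at log2 changes of -0.38 (edgeR adjusted p = 0.128), -0.30 (0.0807) and -0.30 (0.324). Hoxa2 passed without replicate 1 (-0.51, edgeR adjusted p = 0.0482) and Hoxa4 without replicate 2 (-0.39, 0.022).

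Several HoxA genes share exon bases with transcripts of the opposite strand, and the strand setting of the counting is not given in the sources used here. Hoxa7 shares 586 bases (20.4% of its exons) with Hoxaas3. Hoxa3 shares bases with Hoxaas2, Hoxaas3 and other antisense transcripts, and 482 bases on its own strand with the gene model Gm28308. Hotairm1, a noncoding RNA of the cluster, fell from 25.9 ± 5.87 to 16.7 ± 5.06 CPM (-0.66 ± 0.17; edgeR adjusted p = 0.00992) and Hoxaas3 from 6.85 ± 0.802 to 4.60 ± 1.38 CPM (-0.61 ± 0.19; 0.0276). Reads of the 2 strands cannot be told apart for those bases if strand was not used. Hoxa5 and Hoxa6 share no exon base with an opposite gene. Of the 7 decreases over all clusters, 4 remain when genes with such shared bases are set aside, and all 7 increases remain.

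**Figure D3:**
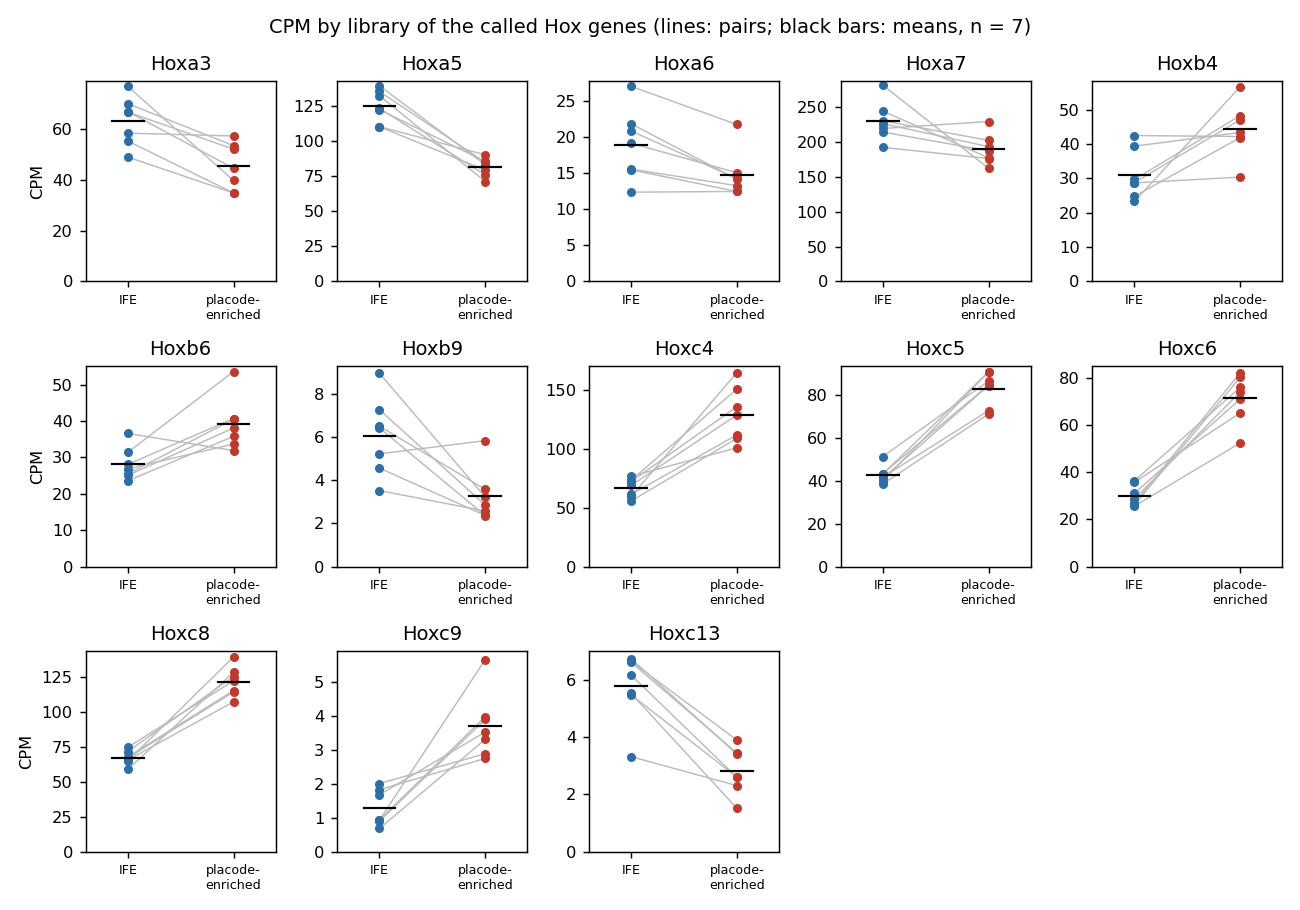
CPM in each library of 13 Hox genes that passed the test. Grey lines join the libraries of a pair, blue points are IFE, red points are placode-enriched and black bars are means (n = 7). Hoxc4 to Hoxc9 rise in every pair and Hoxa3, Hoxa5 and Hoxc13 fall in every pair, while Hoxa6, Hoxa7, Hoxb4, Hoxb6 and Hoxb9 have 1 pair against the direction.

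HoxB genes moved less and in both directions. Hoxb4 (ENSMUSG00000038692; chromosome 11, 96318267 to 96321638), known for its action in blood stem cells, ranged from 30.4 to 56.7 CPM (median 43.4) in placode-enriched and from 23.3 to 42.6 CPM (median 28.8) in IFE libraries. It rose by 0.52 ± 0.14 (edgeR adjusted p = 0.0125) in 6 of 7 pairs, with overlapping ranges. Hoxb6 (ENSMUSG00000000690; 96292476 to 96301569) ranged from 31.9 to 53.6 CPM (median 38.1) against 23.7 to 36.6 CPM (median 26.9) and rose by 0.47 ± 0.11 (edgeR adjusted p = 0.00508) in 6 of 7 pairs. Hoxb9 (ENSMUSG00000020875; 96271457 to 96276595), a gene of the thoracic skeleton, fell from 3.52 to 8.95 CPM (median 6.42) in IFE to 2.36 to 5.83 CPM (median 2.85), a log2 change of -0.91 ± 0.22 (edgeR adjusted p = 0.00583). These calls were lost in part when the sets of pairs were analysed alone. Hoxb4 stood at 0.71 (edgeR adjusted p = 0.0635) in the 27-7 pairs and 0.38 (0.11) in the others, Hoxb6 at 0.42 (0.0893) in the others, and Hoxb9 at -0.91 in both (0.0917 and 0.057).

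Of the other HoxB genes, Hoxb2, Hoxb3, Hoxb5 and Hoxb8 had log2 changes between -0.06 and 0.15. Hoxb8, a gene of the mid trunk, ranged from 65.1 to 138 CPM (median 91.6) against 71.6 to 105 CPM (median 84.2). Hoxb7 stood at -0.26 (edgeR adjusted p = 0.0962) and passed without replicate 5 (-0.32, 0.0445). Hoxb1 was near the limit of counting, at 0 to 0.945 CPM against 0.481 to 2.22 CPM, with a log2 change of -1.85 ± 0.77 (edgeR adjusted p = 0.0842). It passed with DESeq2 (-2.01, adjusted p = 0.0075) and without replicate 7 (-2.37, edgeR adjusted p = 0.038). Hoxb3os, an antisense RNA that shares 2250 exon bases (52.9%) with Hoxb3 and 953 (27.3%) with Hoxb2, rose by 0.46 ± 0.11 (edgeR adjusted p = 0.00649), so the values of these genes are uncertain if strand was not used.

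In the HoxD cluster Hoxd4 ranged from 1.70 to 3.61 CPM (median 2.61) against 0.728 to 2.68 CPM (median 1.70), a log2 change of 0.71 ± 0.29 (edgeR adjusted p = 0.0851), and was higher in 6 of 7 pairs. Hoxd8 ranged from 5.60 to 10.8 CPM (median 6.86) against 6.18 to 13.6 CPM (median 9.74), a log2 change of -0.37 ± 0.14 (edgeR adjusted p = 0.059). Both passed with DESeq2 (adjusted p = 0.0449 and 0.044). Hoxd8 also passed with limma-voom (0.0389), without replicate 5 (-0.46, edgeR adjusted p = 0.0217) and in the 4 pairs without 27-7 codes (-0.58, 0.0407), and Hoxd4 passed without replicate 7 (0.92, 0.0376). Hoxd4 shares 388 exon bases with Hoxd3 and 1154 bases (39.1%) with the read-through gene Gm28230. It also shares 347 bases (11.8%) with Hoxd3os1 of the opposite strand, so its counts are uncertain.

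Members of a paralog group carry related proteins. In groups 5, 6 and 9 members passed in opposite directions, and in the other groups no 2 members did. In group 4 Hoxb4 and Hoxc4 rose, and Hoxd4 (0.71) and Hoxa4 (-0.30) did not pass. In group 5 Hoxc5 rose, Hoxa5 fell and Hoxb5 stood at 0.11 (edgeR adjusted p = 0.535). In group 6 Hoxb6 and Hoxc6 rose and Hoxa6 fell. In group 7 Hoxa7 fell and Hoxb7 stood at -0.26, and in group 2 neither Hoxa2 (-0.38) nor Hoxb2 (-0.06) passed. In group 3 Hoxa3 fell and Hoxb3 stood at 0.15. In group 8 Hoxc8 rose, with Hoxb8 at 0.06 and Hoxd8 at -0.37 without passing. In group 9 Hoxc9 rose, Hoxb9 fell and Hoxa9 did not pass.

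The balance of the clusters separated the fractions in every pair. The summed HoxC level was 133 to 170 CPM per kilobase (median 156) in placode-enriched and 72.3 to 84.5 (median 79.1) in IFE libraries, and the HoxA sum was 161 to 215 (median 178) against 218 to 287 (median 248.6). Neither range overlapped between the fractions, but the HoxA ranges did with the longest transcript as gene length (193.8 to 261.3 against 257.9 to 345). The HoxB sum, at 102 to 164 (median 116) against 99.7 to 135 (median 109), overlapped. HoxC made up 33.2 ± 1.37% of the summed Hox level in placode-enriched and 17.98 ± 1.09% in IFE libraries, HoxA 39.7 ± 1.02% and 55.9 ± 1.76%, and HoxB 26.3 ± 1.66% and 25.1 ± 1.24% (SD, n = 7). The ratio of the HoxC to the HoxA sum was 0.791 to 0.913 (median 0.824) in placode-enriched and 0.282 to 0.354 (median 0.319) in IFE libraries, which made it 2.27 to 2.80 times as high in the placode-enriched library of each pair. This ratio does not depend on how libraries are scaled. It was chosen after the values of the clusters were seen and has no test.

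**Figure D4:**
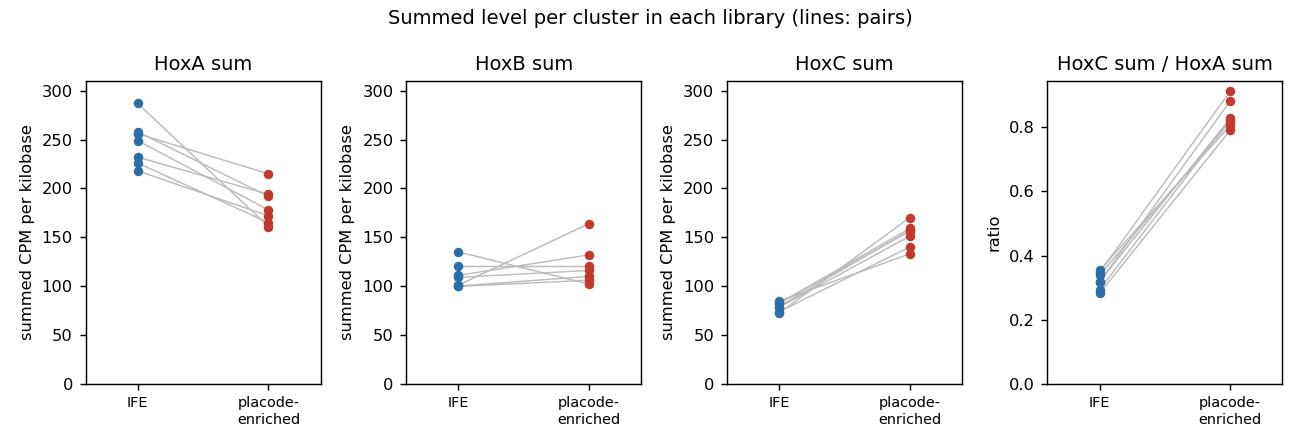
Summed CPM per kilobase of the HoxA, HoxB and HoxC genes in each library, and the ratio of the HoxC to the HoxA sum (right panel). Grey lines join the libraries of a pair. The HoxC sum rises from 72.3 to 84.5 in IFE to 133 to 170 in placode-enriched libraries, and the ratio lies between 0.282 and 0.354 in IFE and between 0.791 and 0.913 in placode-enriched libraries.

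The fraction difference was also compared between the 3 pairs with 27-7 codes and the 4 other pairs. No Hox gene passed in the test of that interaction (edgeR, lowest adjusted p = 0.902), and 1 of 25, Hoxb8, had an unadjusted p under 0.05 (0.0496). Over all genes, 0% passed and 3.43% had an unadjusted p under 0.05. With library size only, 0 Hox genes passed. The labels do not say what the codes stand for.

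Whether the 2 fractions of a pair share their Hox level was asked with the correlation of log2 CPM over 7 pairs. The median r over the 25 Hox genes was 0.017, beside 0.105 over all genes tested. By the exact permutation test over all pairings (two-sided), 1 Hox gene had an unadjusted p under 0.05, and 0 passed after adjustment over all genes, where 6.96% of all genes had such an unadjusted p and 0% passed. That gene was Hoxa6, with Pearson r = 0.841 (exact permutation p = 0.00833, adjusted 0.583) and Spearman rho = 0.857 (exact permutation p = 0.0238). With the 2 most distant pairs set aside its r was 0.752.

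The cofactors through which Hox proteins choose their sites were expressed in both fractions. The lowest was Pbx4, at 0.394 to 2.18 CPM in placode-enriched and 0.192 to 2.18 CPM in IFE libraries. Of 9 TALE homeobox genes, 3 were higher, none was lower and 6 did not pass, with a median log2 change of 0.31 beside -0.02 over all genes tested, of which 15.5% were higher. Meis1 (ENSMUSG00000020160) ranged from 46.4 to 56.3 CPM (median 53.2) in placode-enriched and from 17.4 to 22.6 CPM (median 20.5) in IFE libraries. The fractions were far apart, and its log2 change was 1.34 ± 0.09 (edgeR adjusted p = 8.08e-08). Pknox2, a relative of Meis, rose from 4.54 ± 1.12 to 7.70 ± 1.14 CPM (0.78 ± 0.18; edgeR adjusted p = 0.00545), and Pbx2 rose by 0.30 ± 0.08 (0.0148). Meis2 stood at 123 ± 12.3 against 136 ± 13.2 CPM (-0.14; edgeR adjusted p = 0.174). With library size only, 4 of the 9 passed.

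**Figure D5:**
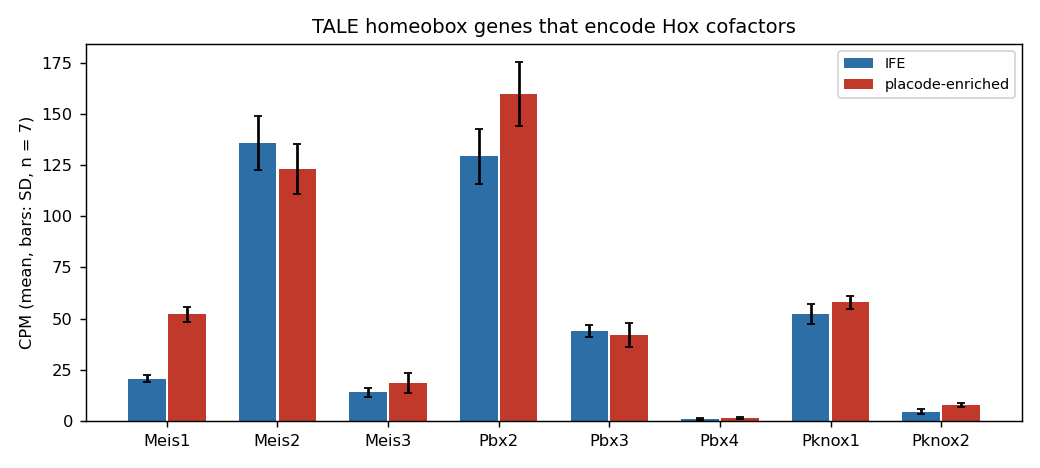
CPM of 8 TALE homeobox genes in IFE (blue) and placode-enriched (red) libraries, as means with SD (n = 7 each). Meis1 stands at 52.0 against 20.6 CPM, while Meis2 stands at 123 against 136 CPM. CPM are not divided by gene length, so bars compare fractions within a gene.

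Genes that set or maintain Hox expression were taken from a list of Polycomb and Trithorax group genes, Cdx factors and related regulators. The list was chosen with earlier results of these data known. Of 27 tested, 10 were higher, 1 was lower and 16 did not pass, with a median log2 change of 0.16. Over all genes tested 15.5% were higher and 15.6% lower, with a median of -0.02. The largest increases were those of Tgif1, a TALE-class corepressor (124 ± 20.5 against 51.1 ± 5.08 CPM; 1.27 ± 0.07; edgeR adjusted p = 2.72e-08), Mllt3, a reader in the elongation complex (1.26 ± 0.13; 5.56e-06), and the Polycomb genes Cbx7 (1.16 ± 0.12; 5.18e-06) and Cbx2 (0.67 ± 0.09; 7.68e-05). Gdf11, a TGF-beta family ligand that places the trunk boundary, rose from 2.12 ± 0.465 to 3.27 ± 0.509 CPM (0.63 ± 0.20; edgeR adjusted p = 0.0291). Kmt2a, which encodes the Trithorax group methyltransferase MLL1, rose by 0.40 ± 0.07 (0.000436).

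Retinoic acid is a known inducer of genes at the front of Hox clusters. Of 11 genes of its receptors and enzymes that could be tested, 1 was higher, 3 were lower and 7 did not pass (median -0.19), beside 31.1% of all genes that passed in either direction. With library size only, 2 were higher. Stra6, a retinol transporter, rose from 0.860 ± 0.449 to 7.50 ± 2.75 CPM (3.19 ± 0.26; edgeR adjusted p = 6.42e-07). The receptor gene Rarb fell from 3.18 ± 0.547 to 1.27 ± 0.607 CPM (-1.43 ± 0.38; 0.011), and Crabp2, which encodes a binding protein of retinoic acid, fell by 1.54 on the log2 scale (0.0151). Rarg, the main epidermal receptor, stood at 176 ± 40.8 against 199 ± 29.5 CPM (-0.19; edgeR adjusted p = 0.259). Among 6 partners of Hox proteins, Ep300 rose by 0.24 ± 0.07 (0.0142), Hipk2 fell by 0.37 ± 0.10 (0.0116) and 4 did not pass, again beside 31.1% of all genes. Of 7 noncoding RNAs of the clusters that could be tested, Hoxb3os rose, Hotairm1 and Hoxaas3 fell and 4 did not pass, beside the same share. Of 8 other homeobox genes of the trunk, 4 had a row and none had enough counts for a test.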

How the data were processed

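RNA-seq libraries of 14 sorted pools were analysed, 7 placode-enriched and 7 IFE. The authors deposited raw counts per Ensembl gene. The submitters' processing notes list STAR, HTSeq, Trimmomatic, FastQC, MultiQC and bcl2fastq 2.17.1.14, and name mm10 and GRCm38 as builds. Not given in the sources used here: annotation release, strand setting, treatment of duplicates.

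GENCODE M21 (GRCm38) named 25949 of 26252 identifiers. filterByExpr left out 10870 genes and kept 15382. Libraries were scaled by TMM, and edgeR 4.0.16 (limma 3.58.1, R 4.3.3) fitted robust quasi-likelihood F tests with the pair as a block. The pair comes from the title codes and the design text, which names pairs. Whether pools of different codes came from separate litters is not stated, so each p-value reflects the spread among these pools, which may be technical. Per-pair differences used a prior count of 2. Each SE is the fitted coefficient over the root of its F statistic. Alternatives were DESeq2 1.42.0, limma-voom and the settings named at the end. Library totals limit low genes most. The fit was tested on simulated counts of 15382 genes, 200 of them changed. It recovered 40.9%, 70.1% and 86.6% of genes changed by 0.5, 1 and 2 on the log2 scale, with 10 false calls. The changed genes were drawn over all levels, and 31.1% of genes passed in the data. These shares therefore do not give the recovery of Hox genes here. Tables and figures used Python 3.11.15, pandas 2.3.3, numpy 2.4.6 and matplotlib 3.10.9.

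Some genes are not reported here by name and count only in totals. The other Hox genes in the table are accounted for. Of each further list, up to 6 passing genes of largest change are named. Kmt2a, Krt5, Meis2, Rarg and all dermal mesenchyme markers were added for their roles, and Pbx4 for its low level. The members and lists were chosen with earlier results of these data known.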

Additional observations from a re-analysis of the deposited data

Results flagged for a closer look

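In the 50 groups of 7 values formed by 25 Hox genes and both fractions, 6 had a highest or lowest library that stood far from the others by Dixon's test (critical value 0.568). Chance flags about 1 in 20 groups. Placode-enriched replicate 5 held 3 of them: Hoxa6 at 21.8 CPM (next 15.1), Hoxb6 at 53.6 CPM (next 40.7) and Hoxc9 at 5.66 CPM (next 3.98). That library also had the highest summed Hox level of the 14, at 553 CPM per kilobase. Placode-enriched replicate 1 had the highest Hoxb9 value, 5.83 CPM (next 3.58). IFE replicate 1 had the highest Hoxc5 value, 51.2 CPM (next 43.3), and IFE replicate 5 the lowest Hoxc13 value, 3.32 CPM (next 5.48). Without replicate 5, the 14 Hox genes that passed all passed again, and Hoxb7 and Hoxd8 passed as well. Without replicate 1, Hoxb9 and Hoxc5 passed.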

How the results depend on the processing

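Of the 14 Hox genes that passed, Hoxa5, Hoxc4, Hoxc5, Hoxc6, Hoxc8 and Hoxc9 passed under all 16 alternative fits, and none of the 14 changed direction. The same 14 genes passed with DESeq2 size factors, library size only, no low-count filter and a filter of 1 CPM in 7 libraries. DESeq2 passed 17 genes and limma-voom 15, each including the 14. No replicate block gave 13, without Hoxa6, and changed no other call. With single pairs left out, 7 to 8 genes were higher and 5 to 9 lower. In the 27-7 pairs alone 6 were higher and 2 lower, and in the other pairs 5 and 6; fewer samples enter these fits. The count of lower genes was 4 without members that have exons opposite another gene. Among genes that did not pass, Hoxb2 turned to 0.00143 in the 27-7 pairs and lay between -0.162 and 0.0399 with single pairs left out, and Hoxb8 turned to -0.14 in the other pairs and lay between -0.0623 and 0.163; the cause was not tested. With the longest transcript as gene length, shares of the summed level were 23.8% (placode-enriched) and 23.2% (IFE) for HoxB and 35.2% and 19.1% for HoxC. The HoxA sums of the fractions then overlapped, while those of HoxC did not. The median pair r lay between -0.154 and 0.254 with single pairs left out, an alternative chosen after seeing the data. Genes under about 1 CPM are limited by depth.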
